A study of Homo sapiens with 4 samples.

Results

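U87MG and U251 are established human glioblastoma cell lines, grown from malignant astrocytic brain tumours and used as stand-ins for that disease in culture. Here their baseline was compared gene by gene, as the poly(A) RNA of 1 control library of U87MG against 1 control library of U251. The cells of both controls had taken up a lentivirus with a control hairpin (sh-NC, labelled WT) at a multiplicity of infection of 20 and 1 week of puromycin selection, so neither is an untreated line. A second pair of libraries carried sh-SRSF1, a hairpin against the splicing factor SRSF1 (labelled KD), and served only to see whether a line difference repeats. All 4 were grown in the same serum-containing medium, and the labels do not say whether a line was a clone, from which stock it came or whether its libraries share an infection.

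The values were RPKM, reads divided by the length of the gene model and by the size of the library. Levels given in pairs name U87MG first and U251 second, and list medians given in pairs name the control pair first and the knockdown pair second. Of 40205 rows in the table, 19784 were mRNA genes, and the 11580 of these with an RPKM of at least 1 in either control library were compared. The other 8204 stayed out, 3067 of them listed at 0 in all 4 libraries. The library totals behind the RPKM values were 26298575 reads in the U87MG control, 25099799 in the U251 control, and 25974900 and 27953878 in the knockdown libraries. Ratios are log2 of (U87MG RPKM + 1) over (U251 RPKM + 1), so a positive value means more in U87MG, and the added 1 understates the difference of weakly expressed genes. With 1 library per line and arm there is no test of the line difference and no spread between replicates. A gene was counted as different at 2-fold, a ratio of 1 or more or of -1 or less, and the only check is whether the pair of knockdown libraries repeated it.

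Glioblastoma cells usually carry changes in growth factor receptors with their PI3K relay, in the DNA damage response and in the RB cell cycle brake. As background, both U87MG and U251 are known to lack the CDKN2A locus. Tumours of this kind are also sorted by resemblance to neural progenitors or to mesenchymal cells, the latter with a programme of inflammatory, matrix and wound genes.

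SRSF1, the targeted gene, stood at 88.3 RPKM in control U87MG and 109 RPKM in control U251, and at 14.6 and 15.8 RPKM in the knockdown libraries of these lines. The libraries labelled as knockdown were thus the low ones in both lines, and the lines differed by a ratio of -0.30 in the controls and -0.11 in the knockdowns. Its longest transcript shares 59.4% of its 31-base words with other annotated genes, so its reads may have been shared too.

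The labelled cell type was checked against markers. VIM, an intermediate filament of mesenchymal cells and reactive glia, was at 1675 RPKM in control U87MG and 1341 RPKM in control U251, and CD44, a hyaluronan receptor, at 184 and 163 RPKM. GFAP, the filament that defines astrocytes, was near 0 in U87MG (0.0246 RPKM) and low in U251 (1.47 RPKM), and S100B and AQP4 were at or near 0 in both. The progenitor filament NES was at 1.79 and 61.1 RPKM in the controls. SOX2 was at 0.121 and 47.9 RPKM and SOX9 at 0.937 and 13.9 RPKM. Of the 7 glioma and astrocyte markers only VIM and CD44 were thus high in both lines. The summed level of 4 neuronal markers was 3.19 to 5.39 RPKM over the 4 libraries, that of 4 leukocyte markers 0.487 to 1.56 RPKM, and those of 3 endothelial and 3 epithelial markers each under 1 RPKM. Of the oligodendrocyte markers, MBP stood at 1.73 RPKM in control U87MG and 0.00815 RPKM in control U251, while MOG was listed at 0 in every library. The defining leukocyte gene PTPRC was listed at 0 in the U87MG control and at 0.0147 RPKM in the U251 control.

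Of the 11580 genes, 1124 were at least 2-fold higher in the U87MG control (9.71%) and 1628 at least 2-fold lower (14.1%), while 8828 lay within 2-fold. At 4-fold the counts were 358 and 474, and at 16-fold 58 and 79. The median ratio over all genes was -0.07, and the median size of a difference, whatever its sign, was 0.52. Each of the 2752 genes past 2-fold had a counting interval of the read ratio that excluded 1, as did 9872 of all 11580. The spread between cultures of a line is unknown. Among the genes past 2-fold, 102 of the higher ones had no read in the U251 control and 155 of the lower ones none in the U87MG control.

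**Figure D1:**
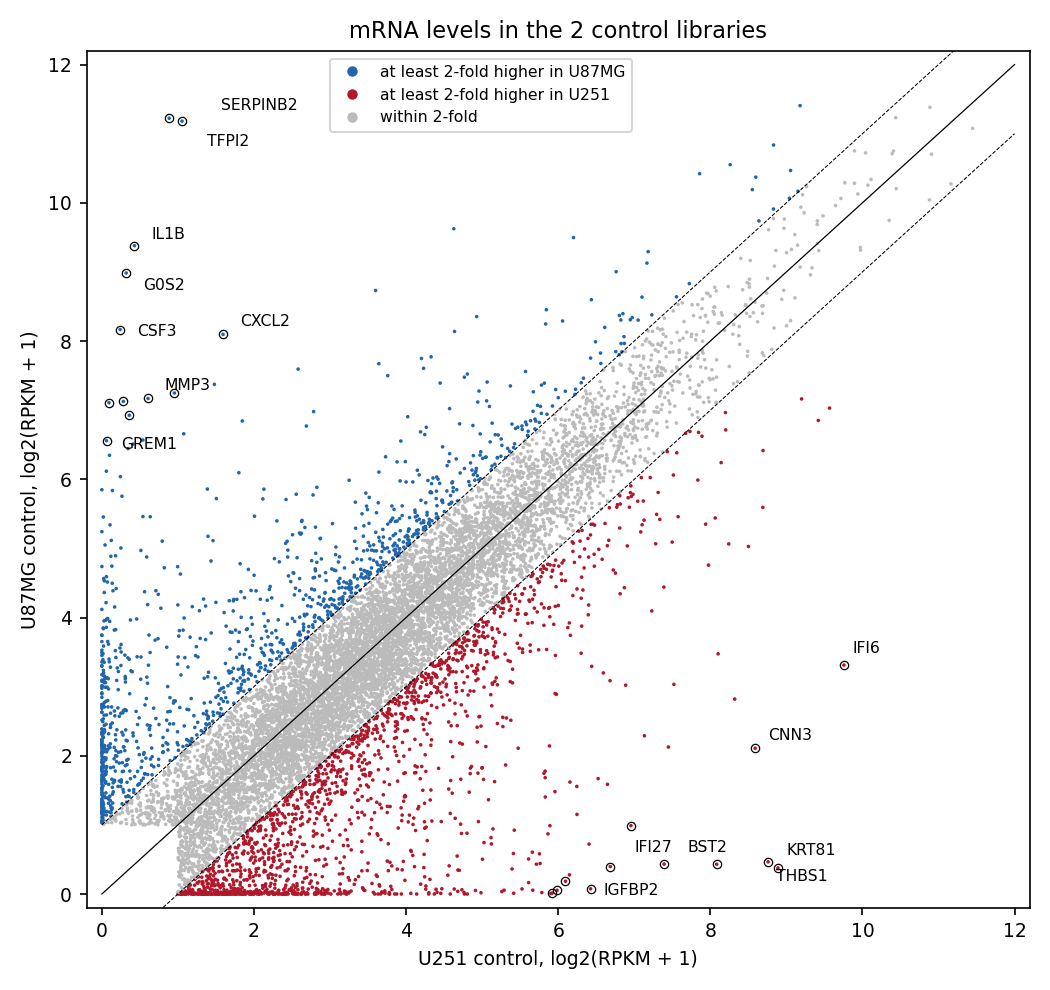
Each point is 1 of the 11580 mRNA genes, with its level in the U251 control on the horizontal axis and in the U87MG control on the vertical axis, both as log2(RPKM + 1). Blue points (1124) are at least 2-fold higher in U87MG, red points (1628) at least 2-fold higher in U251, the dashed lines mark 2-fold, and circles mark the 12 highest and 12 lowest ratios among genes that repeated.

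Most of these differences were seen again between the knockdown libraries, which share no library with the controls. Of the 1124 higher genes, 896 (79.7%) were at least 2-fold higher there too, and of the 1628 lower genes 1338 (82.2%) were at least 2-fold lower. Another 6 and 3 genes had the opposite sign, and none was past 2-fold the other way. Of the genes past 4-fold, 348 of 358 (97.2%) and 469 of 474 (98.9%) repeated at 2-fold. The ratios of the control pair and the knockdown pair differed by a median of 0.25 and by up to 0.66 for 90% of the genes. Across genes, which are not independent replicates, their Pearson r was 0.93 and their Spearman rho 0.90. The median ratio of all genes was -0.16 in the knockdown pair. Both pairs carry the same lines, so a repeat shows that a difference was present in a second set of libraries and says nothing of other stocks.

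**Figure D2:**
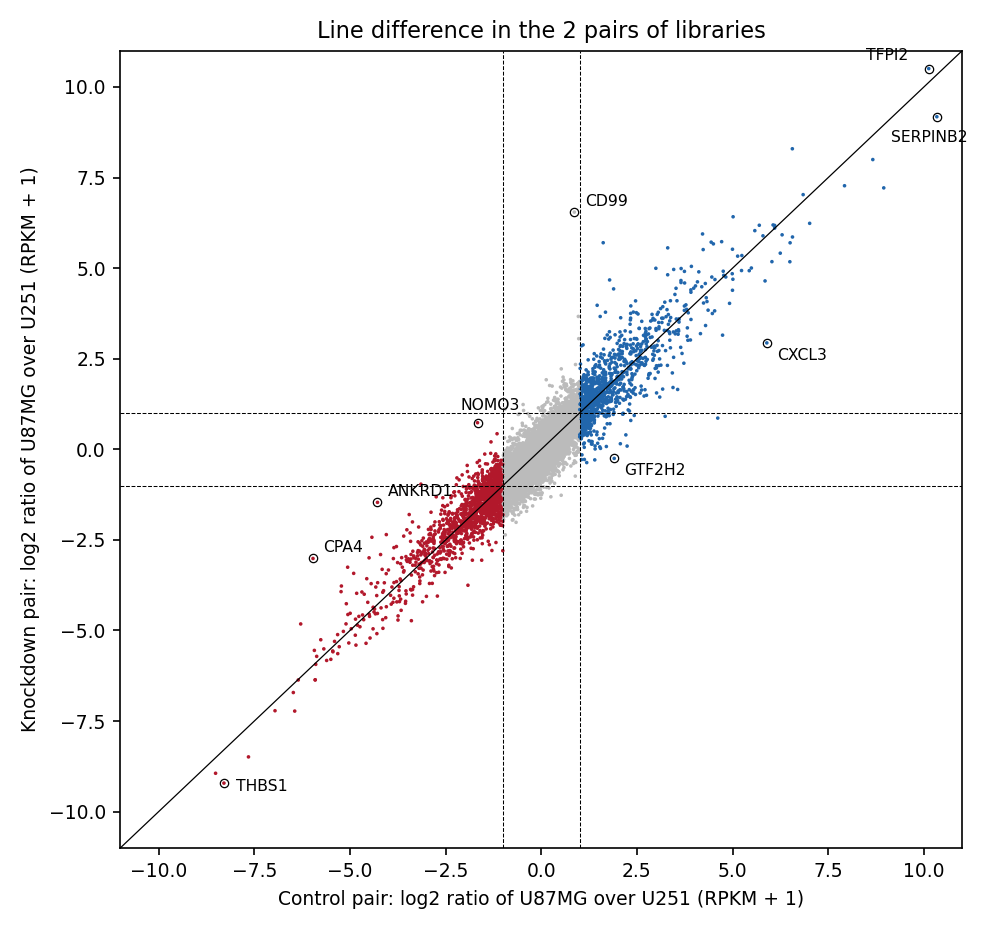
Each point is 1 of the 11580 mRNA genes, with the log2 ratio of U87MG over U251 in the control pair on the horizontal axis and in the knockdown pair on the vertical axis; dashed lines mark 2-fold and the solid line equal ratios. Points past 2-fold in the controls are blue or red, and most lie near the solid line (Pearson r 0.93 across genes), with circled genes named in the text.

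SERPINB2, TFPI2, IL1B, G0S2 and CSF3 had the 5 highest ratios. SERPINB2, an inhibitor of the plasminogen activator urokinase, stood at 2390.1 RPKM in control U87MG and 0.846 RPKM in control U251, and at 943 and 0.628 RPKM in the knockdowns. By reads this was 2825 times as much in U87MG (95% Clopper-Pearson interval 2118 to 3859, counting error only). TFPI2, another inhibitor of serine proteases in the matrix, was at 2321 RPKM in U87MG against 1.08 RPKM in U251, with 2435 and 0.673 RPKM in the knockdowns. Both genes were thus among the 8 most abundant mRNAs of the U87MG control, and had 46 and 33 reads in the U251 control. IL1B, the cytokine interleukin-1 beta, was at 665 and 0.346 RPKM (194 and 0.310 RPKM in the knockdowns). For G0S2, an inhibitor of fat breakdown, the values were 506 and 0.248 RPKM in the controls and 273 and 0.0743 RPKM in the knockdown libraries. CSF3, the granulocyte growth factor, was at 286 RPKM in U87MG against 0.181 RPKM in U251, with 166 and 0.0813 RPKM in the knockdowns. In each of these genes both U87MG libraries lay far above both U251 libraries, and the 2 arms of a line lay much closer to each other than the lines. The genes were taken from those that repeated at 2-fold in the knockdown pair, so this was largely set by the choice.

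The next genes in this order were the BMP antagonist GREM1 (ratio 7.01), the small GTPase RRAD (6.84), the cytokine MIF (6.57), the matrix protease MMP3 (6.56), the chemokine CXCL2 (6.50), the EGF receptor ligand EREG (6.50) and the secretory chaperone SCG5 (6.29). Their ratios in the knockdown pair ran from 5.18 for EREG to 8.29 for MMP3. MMP3 was the gene whose level moved most within U87MG among these 7, from 143 RPKM in the control to 589.6 RPKM in the knockdown. MIF is usually abundant in cultured cells, and its U251 libraries held 0.284 and 0.957 RPKM.

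At the other end, KRT81, a hair keratin, had the lowest ratio (-8.51), but 53.2% of its words recur in another gene, so its level is uncertain. THBS1, the matricellular protein thrombospondin-1, stood at 0.381 RPKM in control U87MG and 432 RPKM in control U251, and at 0.279 and 759 RPKM in the knockdowns. Its read ratio was 0.0008807 (interval 0.0005897 to 0.001265). The lower U251 library still held 1135 times the THBS1 level of the higher U87MG library. CNN3, a calponin that binds actin, was at 3.31 and 384 RPKM (4.21 and 546 RPKM in the knockdowns). IGFBP2, a binding protein for insulin-like growth factors that is abundant in many glioblastomas, was at 0.0532 and 85.0 RPKM in the controls and 0.0538 and 86.0 RPKM in the knockdown libraries. The thyroid hormone activating enzyme DIO2 was at 0.316 RPKM in U87MG against 102 RPKM in U251, with 0.562 and 43.1 RPKM in the knockdowns. The remaining genes of this group were the interferon-stimulated BST2, IFI27 and IFI6, described below, the carboxypeptidase CPA4 (-5.97), the translation factor EEF1A2 (-5.93), the teneurin TENM2 (-5.91) and the neurofilament NEFL (-5.91). CPA4 was the least stable of them, at 0.985 RPKM in control U87MG and 8.01 RPKM in knockdown U87MG, with a ratio of -3.01 in the knockdown pair.

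**Figure D3:**
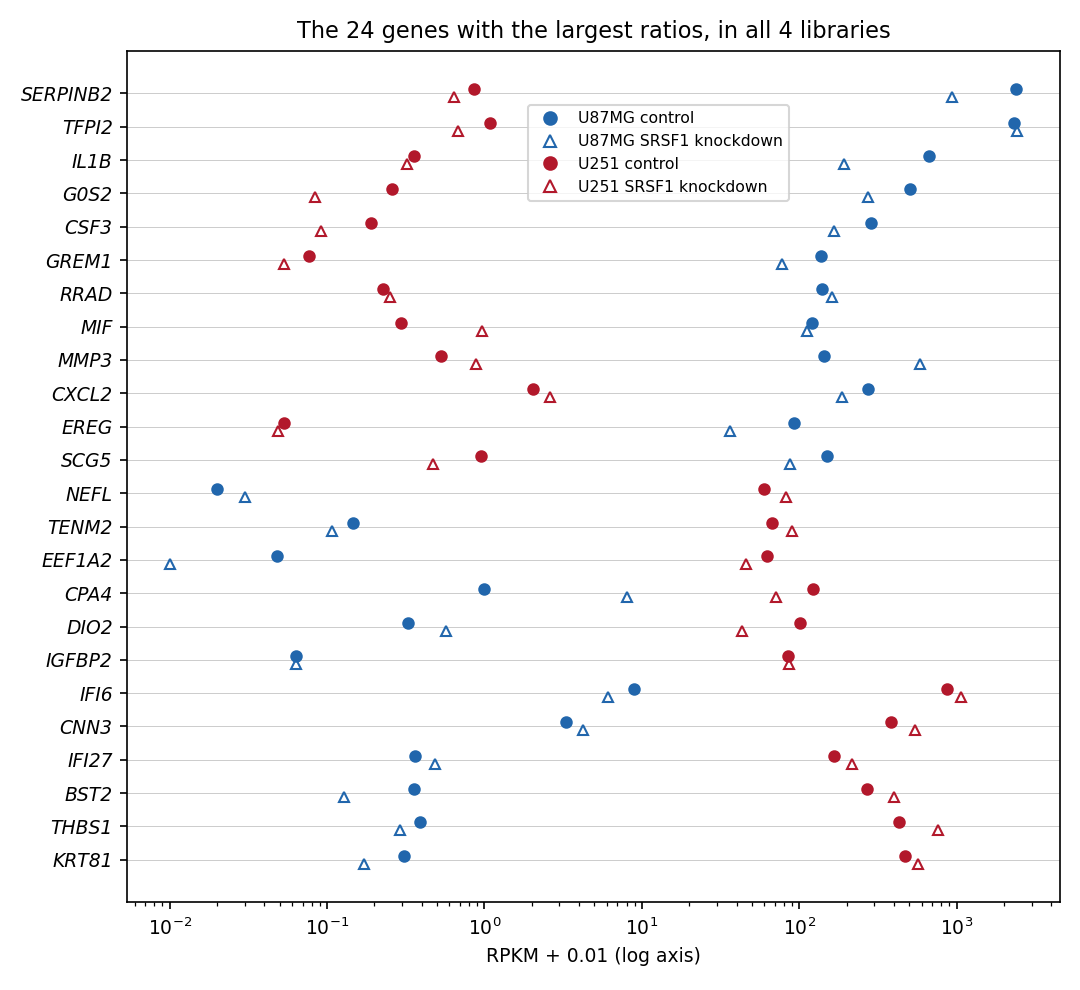
Levels of the 12 genes with the highest and the 12 with the lowest ratio, in all 4 libraries, on a log axis of RPKM + 0.01. They were drawn from genes that repeated at 2-fold, so the separation of the lines was largely set by the choice. Blue marks U87MG and red U251, filled circles the controls and open triangles the knockdowns; for each gene both libraries of the higher line lie above both of the other line, with the smallest gap for CPA4, whose U87MG libraries are themselves far apart.

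Genes seen in 1 line alone made a shorter list. A total of 38 mRNA genes were at 10 RPKM or more in the U87MG control and at 0.1 RPKM or less in the U251 control, and 25 of them met the same limits in the knockdown pair. After GREM1 and EREG the most abundant were the elastase inhibitor PI3 (1171 reads against 1), the transporter SLC43A3 (5164 against 3), the chemokine CCL3 (1187 against 0), the phosphatase PAPL (3338 against 1), the caveola protein PRKCDBP (1078 against 2) and CYBA, a subunit of NADPH oxidases (701 against 0). In the other direction there were 48 genes, of which 37 repeated. IGFBP2, EEF1A2 and NEFL led them, followed by the cilium gene SPAG17 (10518 reads in U251 against 1 in U87MG), the fucosidase FUCA2 (3462 against 1), the phosphodiesterase PDE1C (4863 against 4), the basement membrane collagen COL4A1 (7381 against 9) and MTAP, an enzyme of methionine salvage (5145 against 1).

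Of the 8 most abundant mRNAs of each control 3 were in both sets, TMSB10, HSP90AA1 and ACTG1. HSP90B1, TMSB10, HSP90AA1, SERPINB2, TFPI2, ACTG1, ANXA1 and HSPA8 led the U87MG control, and ACTG1, B2M, S100A6, TMSB10, ACTB, HNRNPA2B1, HSP90AA1 and CALR the U251 control. Beside SERPINB2 and TFPI2, those past 2-fold were HSP90B1, an endoplasmic reticulum chaperone, at 2712 against 579 RPKM, and ANXA1, a membrane-binding annexin, at 1827 against 454 RPKM. The ratios of the others lay between -0.89 for B2M, the light chain of MHC class I, and 0.86 for HSPA8, a constitutive chaperone. The 10 most abundant genes held 6.54% of the summed mRNA RPKM in the U87MG control and 5.79% in the U251 control.

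NF-kB is a family of transcription factors that inflammatory signals release from its inhibitors, and its targets include chemokines, cytokines and its own inhibitors. Of 27 listed cytokines and targets 25 were tested, 18 of them (against 9.71% of all genes) were at least 2-fold higher in U87MG and 2 at least 2-fold lower, and 15 and 2 repeated. The list median was 1.64 in the control pair and 1.60 in the knockdown pair, against -0.07 and -0.16 over all genes tested. Counts of the lists are to be read against 9.71% of all genes higher and 14.1% lower. They also hold members that reached 1 RPKM in 1 control alone, whose sign was set by that limit, here 8 of the 25, all through U87MG. Among the ligands, IL1B and CSF3 were named above. CXCL8, a neutrophil chemokine listed in the table as IL8, was at 789 and 23.7 RPKM (748 and 34.7 RPKM in the knockdowns). The related chemokine CXCL2 was at 273 and 2.02 RPKM in the controls and 187 and 2.61 RPKM in the knockdown libraries. CXCL3 stood at 165 RPKM in U87MG against 1.79 RPKM in U251, with 24.4 and 2.31 RPKM in the knockdowns, and it was the chemokine whose ratio fell most between the pairs, from 5.89 to 2.94. IL6, which signals through STAT3, was at 58.0 and 6.1 RPKM (61.8 and 6.86 RPKM in the knockdowns). All U87MG libraries were above all U251 libraries in each of these 4 genes. The share of all genes separated in this way was not counted, here or for the other genes so described. Among all genes past 2-fold, 99.5% of the higher and 99.8% of the lower kept their direction in the knockdown pair. TNF was listed at 0 in both controls.

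Among enzymes and regulators of the pathway, PTGS2, the inducible cyclooxygenase, was at 7.38 and 0.239 RPKM in the controls and 13.0 and 0.565 RPKM in the knockdown libraries, and the mitochondrial superoxide dismutase SOD2 at 139.5 RPKM in U87MG against 32.3 RPKM in U251, with 434 and 34.1 RPKM in the knockdowns. The inhibitors NFKBIA and TNFAIP3 had ratios of 1.21 and 1.19, and the subunits RELB, NFKB2 and NFKB1 had 1.64, 1.14 and -0.15. Only CCL2, a monocyte chemokine, and IL11 were past 2-fold in the other direction among the 25. CCL2 was at 1.78 and 27.4 RPKM (3.44 and 30.2 RPKM in the knockdowns), and IL11 at 10.8 and 22.7 RPKM in the controls and 7.16 and 55.8 RPKM in the knockdown libraries.

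The promoters of these genes are shown because the list was chosen for 1 transcription factor family and 18 of its 25 tested members were higher in U87MG. A form of the kappaB element (GGG, any 2 bases, TTTCC, on either strand) was looked for in RefSeq windows from 250 bases before to 50 bases after the start site (GRCh38.p14). It was present in 10 of the 19 listed genes with a window (52.6%), in 8 of the 15 that were higher in U87MG, in 2.21% of 9534 tested genes and in 1.92% of all 27305. The list was chosen as NF-kB targets, so the excess over all genes goes with that choice and says nothing of the line difference. The windows below read along the gene, with the match in capitals, at chr4:74099254-74099283 and chr4:74038749-74038778 for the reverse-strand genes CXCL2 and CXCL3, chr4:73869304-73869333 for CXCL1 and chr7:22727117-22727146 for IL6, both on the forward strand.
CXCL2: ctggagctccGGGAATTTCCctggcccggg
CXCL3: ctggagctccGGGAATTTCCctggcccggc
CXCL1: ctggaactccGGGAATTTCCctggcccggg
IL6: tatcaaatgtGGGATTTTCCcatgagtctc
The matches start 78, 79, 79 and 73 bases before the start site in this order. A match describes letters and is neither a bound site nor a cause of the level.

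Interferon-stimulated genes encode antiviral effectors and the sensors and factors that switch them on, among them STAT2 and IRF9. They were mostly lower in U87MG, and the highest of them in U251 were among the largest differences of the whole comparison. Of 41 listed genes 40 were tested, 27 were at least 2-fold lower in U87MG (against 14.1% of all genes) and 5 at least 2-fold higher, and 21 and 4 of these repeated. The median was -1.75 in the controls and -1.20 in the knockdowns, and 6 of the 40 reached 1 RPKM in the U251 control alone and 2 in the U87MG control alone. Among effectors, BST2, which tethers budding virus to the cell, was at 0.348 RPKM in U87MG against 270.2 RPKM in U251, with 0.117 and 401 RPKM in the knockdowns. IFI27 was at 0.350 and 167 RPKM (0.472 and 218 RPKM in the knockdowns). IFI6, a mitochondrial protein, was at 8.93 and 864 RPKM in the controls and 6.09 and 1059.8 RPKM in the knockdown libraries. The membrane protein IFITM1 was at 0.212 RPKM in U87MG against 69.9 RPKM in U251, with 0.107 and 57.2 RPKM in the knockdowns, and the dynamin-like MX1 at 0.9 and 41.9 RPKM (0.454 and 33.1 RPKM in the knockdowns). In these 5 genes the lower U251 library was at least 36.9 times as high as the higher U87MG library.

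Among the factors that switch these genes on, STAT2 and IRF1 had ratios of -0.22 and -0.01 in the controls. IRF9 had a ratio of -2.37, with most of its words shared with another annotated gene. Sensors were lower in U87MG in the control pair, with RIGI (listed under its older symbol DDX58) at a ratio of -2.04 and IFIH1 at -1.94, but IFIH1 had -0.45 in the knockdown pair. The list did not move as a block. OASL, an RNA-binding relative of the oligoadenylate synthetases, was at 34.3 and 6.31 RPKM in the controls and 16.9 and 5.44 RPKM in the knockdown libraries, and IFIT2 at 46.2 RPKM in U87MG against 10.2 RPKM in U251, with 67.0 and 9.99 RPKM in the knockdowns. RSAD2 was also higher in U87MG (1.51 and 2.42), while its neighbours in function OAS1 and USP18 were lower (-2.72 and -2.58).

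The core of the interferon response element (TTTC, any 2 bases, TTTC, on either strand) stood in 19 of the 31 listed genes with a RefSeq window (61.3%), against 2.94% of the 9534 tested genes and 3.65% of all 27305. The list was chosen as interferon-stimulated genes, so this excess goes with that choice and says nothing of the line difference. It was in 15 of the 22 lower genes and in 1 of the 2 higher genes that had a window. The windows below, from 3 genes that were far lower in U87MG and from the 1 higher gene with a match, show that it occurs in both directions of difference. They lie at chr19:17405741-17405770 on the reverse strand for BST2, chr14:94110618-94110647 on the forward strand for IFI27, chr21:41420559-41420588 on the forward strand for MX1 and chr15:88638937-88638966 on the forward strand for ISG20 (GRCh38.p14), where ISG20 is the exonuclease gene that was higher in U87MG, with a ratio of 1.13.
BST2: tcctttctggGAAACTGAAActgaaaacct
IFI27: atgtctgcagTTTCGGTTTCctggaaaatg
MX1: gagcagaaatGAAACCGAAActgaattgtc
ISG20: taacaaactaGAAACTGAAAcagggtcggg
Capitals mark the match, which in BST2, MX1 and ISG20 is on the strand opposite to the gene.

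MHC class I molecules show peptides cut by the proteasome and carried into the endoplasmic reticulum by the TAP transporter. All 16 listed genes were tested, 10 were at least 2-fold lower in U87MG, none was 2-fold higher and 8 repeated (median -1.20 and -0.97). The heavy chain HLA-C was at 114 and 684 RPKM (76.1 and 618 RPKM in the knockdowns). HLA-F, a non-classical heavy chain, was at 4.53 and 35.8 RPKM in the controls and 4.27 and 42.7 RPKM in the knockdown libraries, and TAP1 at 5.67 RPKM in U87MG against 25.5 RPKM in U251, with 5.19 and 22.4 RPKM in the knockdowns. In these 3 genes both U87MG libraries were below both U251 libraries, and the share of all genes so separated was not counted. B2M, the shared light chain, was at 1238 and 2295 RPKM in the controls, within 2-fold. Reads of the HLA genes can be shared among alleles and relatives, so their levels are less sure than the copy check shows.

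MHC class II genes, which present peptides to helper T cells, were weakly expressed. Of 11 listed, 6 reached the 1 RPKM needed to be tested, all of them in the U87MG control alone, so their direction in the controls was set by that limit. In the knockdown pair 3 of the 6 were at least 2-fold higher in U87MG. HLA-DRB1 was at 8.83 and 0 RPKM (4.12 and 0.0293 RPKM in the knockdowns), and CD74, the invariant chain, at 8.89 and 0.190 RPKM in the controls and 4.03 and 0.149 RPKM in the knockdown libraries. HLA-DPB1 was listed at 0 in control U251 and at 2.77 RPKM in control U87MG. HLA-DQB1 was likewise listed at 0 in the U251 control and at 2.42 RPKM in the U87MG control. CIITA, their master regulator, was not tested, at 0.354 RPKM in control U87MG and 0 in control U251.

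DNA damage induces genes of cell cycle arrest, repair and death. Of 28 tested genes of such a list 9 were at least 2-fold higher in U87MG (32.1%, against 9.71% of all genes), of which 8 repeated, and 1 was at least 2-fold lower (3.57%, against 14.1%), with a median of 0.77 and 0.70. CDKN1A, the cell cycle inhibitor p21, was at 49.9 RPKM in U87MG against 9.08 RPKM in U251, with 53.7 and 3.45 RPKM in the knockdowns. PHLDA3, an inhibitor of AKT, was at 54.1 and 4.88 RPKM (67.5 and 3.1 RPKM in the knockdowns), and SESN2, a stress sensor upstream of mTORC1, at 24.9 and 2.8 RPKM in the controls and 32.2 and 4.95 RPKM in the knockdown libraries. These 3 genes, named for their large ratios, were higher in both U87MG libraries than in both U251 libraries, and the share of all genes so separated was not counted. The 1 gene at least 2-fold lower in the controls was the kinase PLK2 (-2.41 and -1.72). With it, 5 of the 28 had a ratio below 0 in the controls. Another of these was past 2-fold lower in the knockdown pair alone (-0.76 and -1.96). The ubiquitin ligase gene MDM2 had a ratio of 0.12, and the death gene BAX -0.05.

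Among 16 tested drivers and suppressors of glioblastoma, 6 were at least 2-fold lower in U87MG and 2 at least 2-fold higher (5 and 1 repeated), with a median of -0.48 and -0.27. MTAP was the extreme, at 0.00773 RPKM in U87MG against 41.6 RPKM in U251, with 0.00782 and 38.8 RPKM in the knockdowns, which is 1 read in the U87MG control. CDKN2A and CDKN2B, its neighbours and the genes of p16 and p15, were listed at 0 in all 4 libraries, as was the DNA repair gene MGMT. RB1, the pocket protein that holds back E2F, was at 10.0 and 31.9 RPKM (6.52 and 22.0 RPKM in the knockdowns). PDGFRA, the receptor for platelet-derived growth factors, was at 0.0578 and 6.06 RPKM in the controls and 0.0761 and 10.4 RPKM in the knockdown libraries. EGFR was nearly equal in the lines, at 21.0 RPKM in control U87MG and 21.4 RPKM in control U251, with 19.4 and 22.5 RPKM in the knockdowns. The cyclin-dependent kinase CDK4, one of those higher in U87MG, was at 62.4 RPKM in U87MG against 28.9 RPKM in U251, with 69.4 and 31.1 RPKM in the knockdowns.

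Receptor tyrosine kinases, which carry growth factor and ephrin signals across the membrane, were lower in U87MG or within 2-fold in the control pair. Of 22 tested, 13 were at least 2-fold lower in U87MG and none 2-fold higher, and 9 of these repeated (median -1.11 and -1.09). Of the 22, 7 reached 1 RPKM in the U251 control alone. EPHA3, an ephrin receptor of glioma progenitors, was at 0 and 19.7 RPKM (0.0133 and 21.8 RPKM in the knockdowns). Its relative EPHA2 was at 12.4 and 70.5 RPKM in the controls and 9.03 and 91.2 RPKM in the knockdown libraries, and FGFR2 was listed at 0 in the U87MG control and at 2.97 RPKM in the U251 control. MET, the receptor of hepatocyte growth factor, was the most abundant of the 13 in control U251, at 33.4 RPKM in U87MG against 77.1 RPKM in U251, with 36.4 and 56.0 RPKM in the knockdowns. AXL, at 61.9 and 95.7 RPKM in the controls, and FGFR1, at 24.7 and 14.1 RPKM, were within 2-fold there. In the knockdown pair AXL was past 2-fold lower in U87MG (-1.24) and FGFR1 past 2-fold higher (1.31). DDR2, a collagen receptor just within 2-fold in the controls (0.998), was also past 2-fold higher in the knockdown pair (1.22).

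Transcription factors and other genes of neural progenitors set the lines apart. Of 23 listed, 14 were tested, 10 were at least 2-fold lower in U87MG and none 2-fold higher, and all 10 repeated (median -2.83 and -2.90). Of the 14, 4 reached 1 RPKM in the U251 control alone. SOX2, which maintains stem cell identity, was at 0.121 and 47.9 RPKM (0.0460 and 49.3 RPKM in the knockdowns). NES, the progenitor filament nestin, was at 1.79 and 61.1 RPKM in the controls and 1.29 and 83.7 RPKM in the knockdown libraries. SOX4 was at 0.709 RPKM in U87MG against 18.4 RPKM in U251, with 0.213 and 9.36 RPKM in the knockdowns, and the Notch target HES1 at 1.07 and 21.1 RPKM (1.63 and 14.3 RPKM in the knockdowns). In each of these 4 genes the lower U251 library was at least 8.77 times as high as the higher U87MG library. OLIG2, a factor of oligodendrocyte progenitors, was below the limit for testing, at 0.936 RPKM in control U87MG and 0.0146 RPKM in control U251. The receptors NOTCH1 and NOTCH2 had ratios of 0.14 and 0.58.

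Genes of mature astrocytes were mostly weak in both lines. Only 8 of 16 reached the limit, with 1 at least 2-fold higher and 2 lower in U87MG and a median of -0.34 and -0.55 (0.22 in the controls at a minimum of 5 RPKM). The U251 control alone brought 3 of the 8 to the limit, among them the lower genes GFAP and FABP7, and the U87MG control alone 1. CLU, a secreted chaperone, was at 55.8 and 20.1 RPKM in the controls and 92.3 and 28.7 RPKM in the knockdown libraries. FABP7, a fatty acid carrier of radial glia, was listed at 0 in the U87MG control and at 1.996 RPKM in the U251 control. The gap junction gene GJA1 was at 17.4 and 28.1 RPKM, and the glutamate transporter SLC1A3 at 13.4 and 13.5 RPKM.

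Mesenchymal glioblastoma markers had no common direction. Of 21 tested, 6 were at least 2-fold higher in U87MG (all 6 repeated) and 4 lower (2 repeated), with a median of -0.24 in the controls (0.06 at a minimum of 5 RPKM) and 0.12 in the knockdowns. FOSL1, an AP-1 subunit, was at 349 RPKM in U87MG against 56.4 RPKM in U251, with 361 and 68.2 RPKM in the knockdowns, and the protease inhibitor TIMP1 at 99.2 and 18.0 RPKM (61.6 and 20.4 RPKM in the knockdowns). On the other side TGFBI, a matrix protein induced by TGF-beta, was at 31.6 and 361 RPKM in the controls and 29.5 and 247 RPKM in the knockdown libraries, and fibronectin, FN1, at 9.3 RPKM in U87MG against 40.3 RPKM in U251, with 5.25 and 28.8 RPKM in the knockdowns. CEBPB had a ratio of 2.10 and STAT3 of -1.16, both named regulators of this state.

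**Figure D4:**
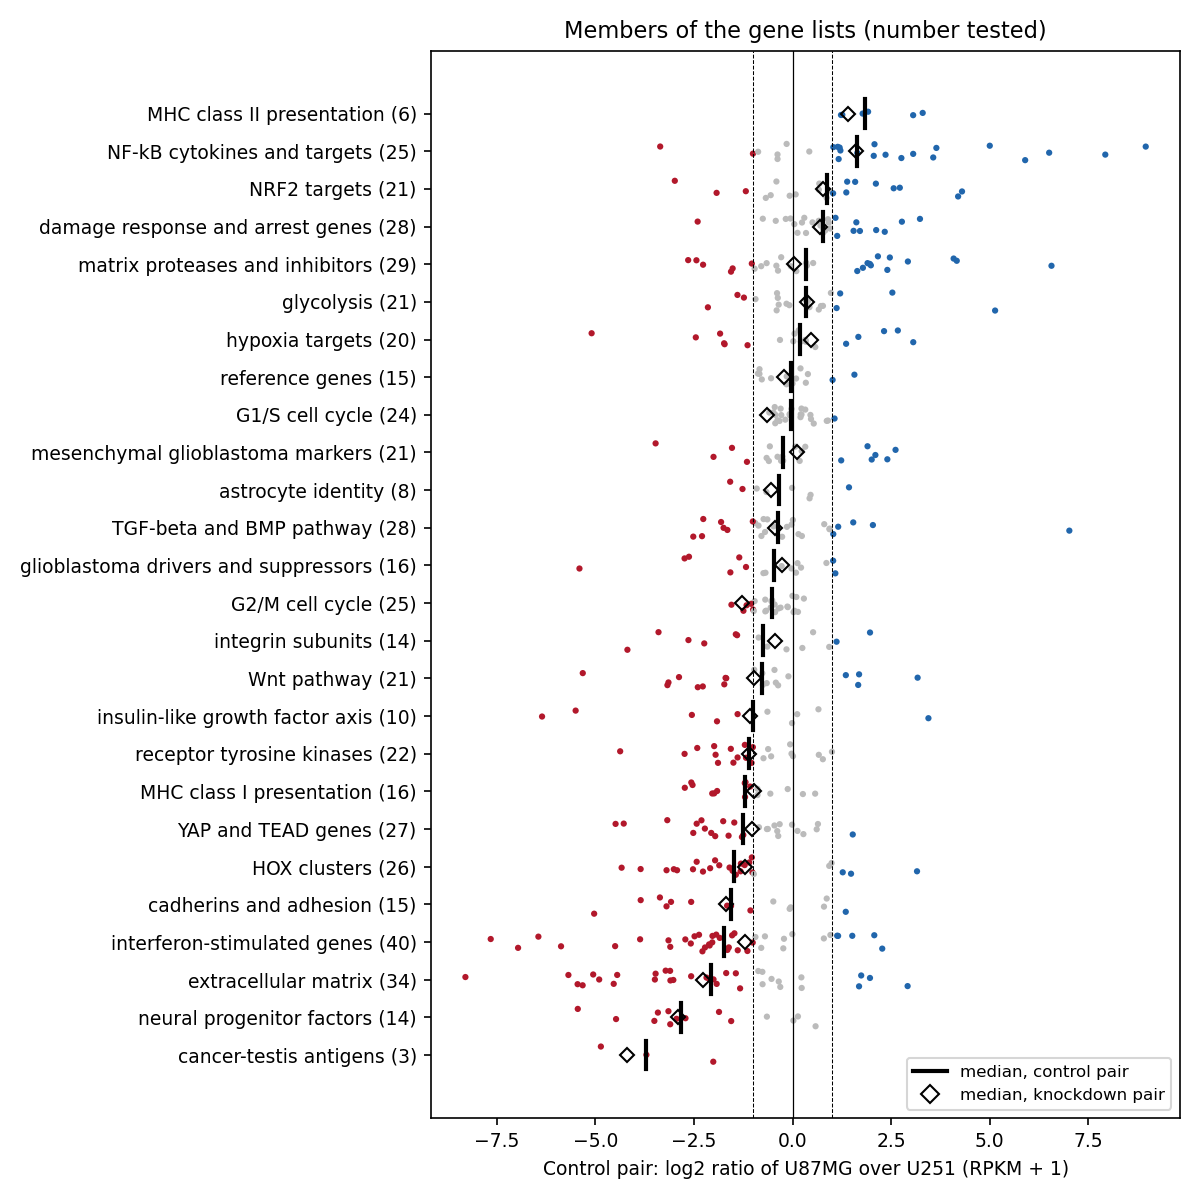
Each point is a tested member of 1 of 26 gene lists, at its log2 ratio of U87MG over U251 in the control pair; blue and red mark members past 2-fold. Black bars give the list median in the control pair and open diamonds in the knockdown pair, from -2.83 for the neural progenitor factors to 1.64 for the NF-kB list, leaving out the cancer-testis list with 3 tested members and the MHC class II list, whose members were tested through U87MG alone.

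Extracellular matrix genes were mostly lower in U87MG. Of 34 tested, 22 were at least 2-fold lower in U87MG (21 repeated) and 4 at least 2-fold higher (all repeated), with a median of -2.06 and -2.26. Of the 34, 11 reached 1 RPKM in the U251 control alone and 2 in the U87MG control alone. The basement membrane collagen COL4A2 was at 0.650 and 83.8 RPKM (0.529 and 68.6 RPKM in the knockdowns), and COL4A1 at 0.0524 and 45.0 RPKM in the controls and 0.106 and 51.4 RPKM in the knockdown libraries. The fibrillar collagen COL1A2 was at 3.37 RPKM in U87MG against 174 RPKM in U251, with 4.27 and 182 RPKM in the knockdowns. SPARC, a collagen-binding glycoprotein, was at 47.3 and 412 RPKM (59.8 and 432 RPKM in the knockdowns). In these 4 genes the lower U251 library was at least 6.89 times as high as the higher U87MG library. The 4 higher ones were COL16A1 (2.92), SPP1, the cytokine osteopontin (1.96), COL6A3 (1.74) and NID2 (1.68), a nidogen whose relative NID1 had -4.45. TNC, tenascin-C, was abundant in both, at 88.7 and 75.5 RPKM.

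Proteases that cut the matrix, and their inhibitors, differed in both directions. Of 29 tested, 12 were at least 2-fold higher in U87MG (all 12 repeated) and 6 lower (5 repeated), with a median of 0.35 and 0.04. These are 41.4% and 20.7%, against 9.71% and 14.1% of all genes. The U87MG control alone brought 5 of the 29 to 1 RPKM, and the U251 control alone 4. MMP1, the interstitial collagenase, was at 17.6 and 0.0388 RPKM in the controls and 8.94 and 0.0870 RPKM in the knockdown libraries. The aggrecanases ADAMTS1 and ADAMTS5 had ratios of 4.08 and 2.92, with ADAMTS1 at 108 RPKM in control U87MG and 5.45 RPKM in control U251. Among enzymes of U251, the plasminogen activator PLAT was at 0.827 RPKM in U87MG against 10.4 RPKM in U251, with 0.546 and 9.2 RPKM in the knockdowns and the matrilysin MMP7 at 0.170 and 5.34 RPKM (0.172 and 3.13 RPKM in the knockdowns). The urokinase gene PLAU was alike in level, at 90.6 and 84.8 RPKM, while its receptor PLAUR was at 109 and 28.4 RPKM.

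Integrins join cells to that matrix as pairs of an alpha and a beta chain. Of 14 tested, 6 were at least 2-fold lower in U87MG and 2 higher, with a median of -0.75 and -0.46. The U251 control alone brought 5 of the 14 to 1 RPKM, so their direction in the controls was set by that limit. ITGB4, which pairs with ITGA6 to bind laminin, was at 0.0503 and 18.1 RPKM in the controls and 0.0509 and 20.8 RPKM in the knockdown libraries, and ITGA6 at 0.111 RPKM in U87MG against 10.7 RPKM in U251, with 0.106 and 15.3 RPKM in the knockdowns. ITGA4, which binds fibronectin and VCAM1, was at 0.556 and 8.71 RPKM (0.316 and 4.97 RPKM in the knockdowns). Those higher in U87MG were ITGA5 (1.11), the fibronectin receptor chain, and ITGB3 (1.96), most of whose words are shared with another annotated gene. Cadherins and other adhesion molecules had 9 of 15 lower in U87MG and 1 higher, with a median of -1.56 and -1.68. Here 5 of the 15 reached 1 RPKM in the U251 control alone and 1 in the U87MG control alone. CDH11 was at 0.285 and 41.0 RPKM in the controls and 0.268 and 50.6 RPKM in the knockdown libraries, the neural adhesion molecule L1CAM at 0.3 RPKM in U87MG against 17.8 RPKM in U251, with 0.180 and 6.74 RPKM in the knockdowns, and NRCAM at 0.0514 and 9.82 RPKM (0.110 and 15.2 RPKM in the knockdowns). CDH2, the N-cadherin of mesenchymal and neural cells, was at 18.3 and 39.6 RPKM in the controls and 17.0 and 36.2 RPKM in the knockdown libraries, and the E-cadherin gene CDH1 was listed at 0 in both controls.

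YAP and its partner TAZ are coactivators that bind TEAD factors when cells are spread and the Hippo kinases are inactive. The coactivators themselves were alike, with YAP1 at 17.8 and 23.2 RPKM in the controls and WWTR1, the gene of TAZ, at 14.2 and 22.5 RPKM. Of the 27 genes of the list, which holds these factors and their targets, 14 were at least 2-fold lower (13 repeated) and 1 higher, the factor TEAD4 (1.52), with a median of -1.25 and -1.03. The U251 control alone brought 5 of the 27 to 1 RPKM. CCN2, a matricellular protein, was at 7.19 RPKM in U87MG against 183 RPKM in U251, with 10.5 and 281 RPKM in the knockdowns, and its relative CCN1 at 32.5 and 302 RPKM (63.0 and 736 RPKM in the knockdowns). The table lists both under older symbols. ANKRD1 was at 0.674 and 31.5 RPKM in the controls and 12.5 and 36.3 RPKM in the knockdown libraries, and its U87MG level in the knockdown library lay between that of the U87MG control and those of U251. TGFB2, the TGF-beta ligand of glioma, was at 2.18 RPKM in U87MG against 17.2 RPKM in U251, with 2.19 and 17.7 RPKM in the knockdowns.

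Among 10 tested genes of the insulin-like growth factor axis, 5 were at least 2-fold lower in U87MG and 1 higher, all of which repeated (median -1.02 and -1.09). The U251 control alone brought 3 of the 10 to 1 RPKM. The binding proteins had opposite patterns. IGFBP7 was at 6.06 and 319 RPKM (2.76 and 208 RPKM in the knockdowns), and IGFBP5 at 0.0609 and 5.23 RPKM in the controls and 0.0185 and 3.97 RPKM in the knockdown libraries. IGFBP6, which prefers IGF2, was at 218 RPKM in U87MG against 19.1 RPKM in U251, with 159.7 and 48.3 RPKM in the knockdowns, the 1 member higher in U87MG. IGFBP3 did not separate the controls, at 12.4 and 12.6 RPKM.

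TGF-beta and BMP genes had 5 of 28 at least 2-fold higher and 7 lower in U87MG (17.9% and 25%, against 9.71% and 14.1% of all genes), with a median of -0.37 and -0.44. The U251 control alone brought 3 of the 28 to 1 RPKM, and the U87MG control alone 2. Beside GREM1, the ligand BMP2 was at 3.15 and 0.0126 RPKM (7.2 and 0.0227 RPKM in the knockdowns). The inhibitory SMAD6 was at 0.2 and 4.78 RPKM in the controls and 0.0895 and 3.41 RPKM in the knockdown libraries, and ID2, a BMP target, at 7.42 RPKM in U87MG against 40.3 RPKM in U251, with 7.59 and 44.3 RPKM in the knockdowns. Receptor TGFBR1 had a ratio of 1.54 and TGFBR2 of 0.01. In the Wnt pathway 9 of 21 were lower and 4 higher, with a median of -0.77 and -0.98, and all 13 repeated. Here 7 of the 21 reached 1 RPKM in the U251 control alone and 3 in the U87MG control alone. The secreted antagonists led the lower genes, with DKK3 at 0.358 and 53.2 RPKM (0.377 and 67.6 RPKM in the knockdowns), DKK1 at 8.81 and 85.9 RPKM in the controls and 7.72 and 76.3 RPKM in the knockdown libraries and SFRP1 at 0.00851 RPKM in U87MG against 8.1 RPKM in U251, with 0.00862 and 8.2 RPKM in the knockdowns. The ligand WNT7B was at 8.72 and 0.0814 RPKM (6.47 and 0.0274 RPKM in the knockdowns), highest in U87MG. The coactivator CTNNB1, beta-catenin, was at 49.5 and 64.1 RPKM.

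HOX genes give cells their position along the body axis and are silent in most of the brain. Of 39 listed, 26 were tested, 20 were at least 2-fold lower in U87MG (14 repeated) and 3 higher (all repeated), with a median of -1.48 and -1.20. Of the 26, 14 reached 1 RPKM in the U251 control alone and 2 in the U87MG control alone. HOXC10 was at 0.272 and 24.7 RPKM in the controls and 0.216 and 27.3 RPKM in the knockdown libraries, HOXB7 at 0.834 RPKM in U87MG against 25.5 RPKM in U251, with 0.366 and 22.6 RPKM in the knockdowns and HOXD10 at 2.36 and 29.8 RPKM (0.939 and 16.5 RPKM in the knockdowns). HOXB2 went against them, at 9.97 and 0.233 RPKM in the controls and 12.4 and 0.189 RPKM in the knockdown libraries, and HOXB6 and HOXD8 were also higher in U87MG (1.48 and 1.27). Within the HOXB cluster, HOXB2 and HOXB6 were higher in U87MG and HOXB3, HOXB7, HOXB9 and HOXB13 higher in U251. Members that reached 1 RPKM in 1 control alone, HOXB2, HOXB7 and HOXB13 among them, had their direction in the controls set by that limit. Of 24 cancer-testis genes in the table, 3 were tested (MAGEA3, MAGEA6 and CT45A1), all lower in U87MG, and all 3 have near-identical copies, so the member of the family cannot be told.

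Glycolysis breaks glucose down to pyruvate, which lactate dehydrogenase turns into lactate. The 21 tested genes had 4 at least 2-fold higher and 3 lower in U87MG (19.05% and 14.3%, against 9.71% and 14.1% of all genes), of which 4 and 2 repeated, with a median of 0.33 and 0.38 (-0.21 in the controls after quantile normalization). LDHA, the muscle-type subunit of that enzyme, was the outstanding member, at 424 RPKM in U87MG against 11.1 RPKM in U251, with 327 and 7.14 RPKM in the knockdowns. By reads LDHA was 38.2 times as high in U87MG (interval 35.3 to 41.3, counting error only). LDHB, the heart-type subunit, was at 792 and 499.8 RPKM (553 and 408 RPKM in the knockdowns), with most of its words shared with another annotated gene. Of the glucose transporters, SLC2A3 was at 18.2 and 2.33 RPKM in the controls and 84.2 and 5.4 RPKM in the knockdown libraries and SLC2A1 at 8.53 RPKM in U87MG against 41.2 RPKM in U251, with 20.5 and 37.6 RPKM in the knockdowns. The lactate transporter SLC16A3 had ratios of -1.40 and -1.57. Of the enzymes between them, HK2, a hexokinase, and ENO2, an enolase, were past 2-fold (1.21 and 1.12, with 1.94 and 2.06 in the knockdowns), and the related enolase ENO1 was just within it (0.97). Others were nearer to 0, with PGK1 at -0.15, TPI1 at -0.08 and PKM at 0.33 (-0.30 after quantile normalization).

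Targets of the hypoxia factor HIF did not share a direction in these cells, which were not labelled as kept in low oxygen. Of 20 tested, 5 were at least 2-fold higher and 6 lower in U87MG, with 5 of each repeating, and the median was 0.18 and 0.46. CA9, a carbonic anhydrase of the cell surface, was at 1.22 and 74.9 RPKM (2.33 and 62.8 RPKM in the knockdowns), and its relative CA12 at 7.74 and 0.0496 RPKM in the controls and 15.7 and 0.214 RPKM in the knockdown libraries. NDRG1 was at 33.4 RPKM in U87MG against 4.41 RPKM in U251, with 47.6 and 5.19 RPKM in the knockdowns, and VEGFA, the vascular growth factor, at 154 and 30.1 RPKM (116 and 41.8 RPKM in the knockdowns). EGLN3, a HIF hydroxylase, was at 0.182 and 5.47 RPKM in the controls and 0.184 and 5.47 RPKM in the knockdown libraries. The carbonic anhydrases thus went in opposite directions.

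NRF2 drives genes of glutathione, thioredoxin and iron handling. Of 21 tested targets 9 were at least 2-fold higher in U87MG (7 repeated) and 3 lower (all repeated), with a median of 0.86 and 0.76. HMOX1, heme oxygenase, was at 125 RPKM in U87MG against 5.89 RPKM in U251, with 315 and 13.1 RPKM in the knockdowns. AKR1C1, an aldo-keto reductase, was at 67.4 and 2.48 RPKM (31.5 and 2.05 RPKM in the knockdowns), and OSGIN1 at 10.9 and 0.806 RPKM in the controls and 16.6 and 2.04 RPKM in the knockdown libraries. Those lower in U87MG included the transporter ABCC3 (-2.99) and NQO1, a quinone reductase and common NRF2 marker, at 52.2 RPKM in U87MG against 120.1 RPKM in U251, with 45.0 and 121 RPKM in the knockdowns. The group was therefore mixed even among its best-known members.

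Cell cycle genes were listed by phase. Of 24 tested G1/S genes 1 was past 2-fold, the helicase subunit MCM6 (1.06), and the median was -0.05 (0.06 after trimmed-mean rescaling). Of 25 G2/M genes none was 2-fold higher in U87MG and 5 were 2-fold lower (20%, against 14.1% of all genes), all of which repeated, with a median of -0.52 against -0.07 over all genes. These were the kinesin KIF20A (-1.55), cyclin CCNA2 (-1.25), topoisomerase TOP2A (-1.17), the centromere motor CENPE (-1.05) and, just past 2-fold, the checkpoint kinase TTK. In the knockdown pair the medians of both lists were lower, -0.64 and -1.28, and MCM6 had -0.15. The line difference in these genes was therefore not the same in the pair of knockdowns, and whether the difference of the pairs exceeds the spread of libraries was not tested. Among 15 genes used as references, PPIA (-0.04) and TBP (-0.00) were nearest to 0, while RPLP0, a ribosomal protein gene, was past 2-fold (1.57, with 1.51 in the knockdowns). ACTB and GAPDH had ratios of -0.84 and 0.39 (-0.09 for GAPDH after quantile normalization).

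Chromosomes differed in their median ratio, which in cancer cells can follow gained or lost copies. Genes were placed on chromosomes with RefSeq on GRCh38, for 11507 of the 11580. Chromosome 18 had the highest median, 0.65 in the controls and 0.66 in the knockdowns over 162 genes. At least 2-fold higher in U87MG were 32.1% of its genes, against 9.71% of all genes. Chromosome 15 followed with 0.26 (0.18 in the knockdowns, 363 genes). Chromosomes 22 and 4 had the lowest medians, -0.41 (258 genes) and -0.33 (433 genes), with -0.53 and -0.39 in the knockdowns. At least 2-fold lower in U87MG were 14.3% and 19.2% of their genes, against 14.1% of all genes. Chromosome 1 had the largest share of lower genes, 21.9% of 1157, with a median of -0.24. No copy number was measured in these data, and its part in the ratios was not tested.

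**Figure D5:**
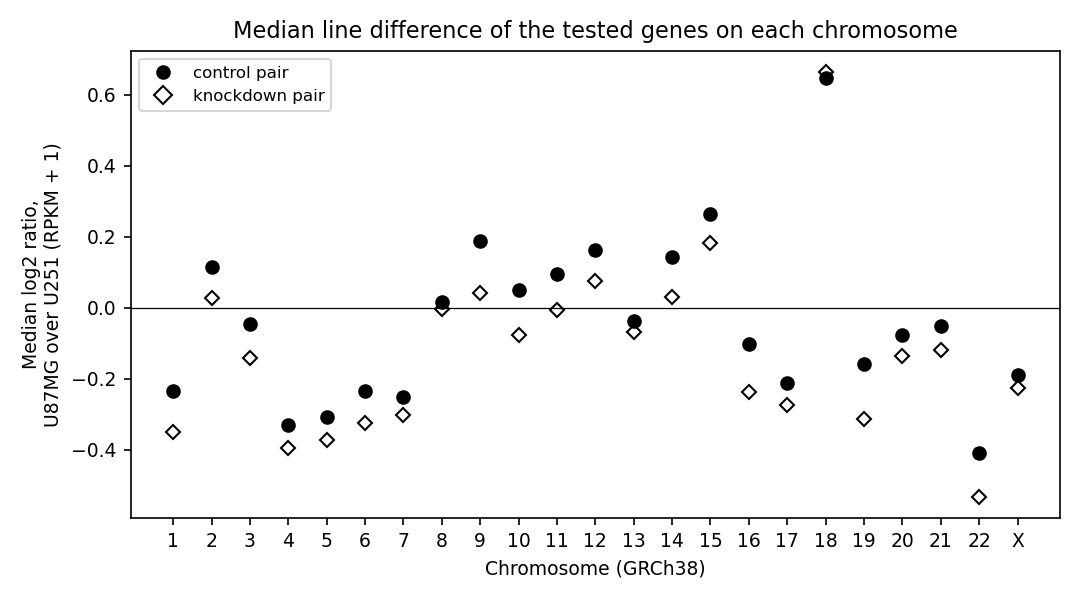
Median log2 ratio of U87MG over U251 for the tested genes of each chromosome with at least 50 of them, for the control pair (filled circles) and the knockdown pair (open diamonds). Chromosome 18 stands highest (0.65 and 0.66) and chromosome 22 lowest (-0.41 and -0.53).

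Runs were sought of at least 4 tested neighbours that were all past 2-fold in 1 direction in both pairs. Genes past 2-fold in both pairs, from which runs can form, numbered 1338 on the U251 side and 896 on the U87MG side. There were 23 runs of 123 genes on the U251 side against 8 runs of 35 genes on the U87MG side. The 3 longest were clusters of zinc finger genes on chromosome 19, from ZNF528 to ZNF816 (11 genes, median -2.03), from ZNF14 to ZNF85 (8 genes, -1.76) and from ZNF566 to ZNF790 (7 genes, -2.18). A count added after these runs were seen took all genes with symbols of the ZNF or ZFP series. On chromosome 19, 88 of 196 such genes (44.9%) were at least 2-fold lower in U87MG, 80 of which repeated, and 3 were higher. Elsewhere 37 of 215 (17.2%) were lower, and of the 612 other genes of chromosome 19 10.1% were. Most zinc finger genes of this chromosome encode repressors with a KRAB domain, and their mRNAs are scarce and similar to each other. ZNF83, seen in U251 alone by the limits above, was at 0.0127 and 18.7 RPKM (0.0257 and 22.7 RPKM in the knockdowns).

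On chromosome 9 a run of 6 genes held MLLT3, FOCAD, KLHL9, MTAP, DMRTA1 and ELAVL2 (median -2.92). MLLT3, FOCAD and DMRTA1 had no read in the U87MG control and 6.07, 7.06 and 6.04 RPKM in the U251 control. KLHL9 was at 0.0172 and 20.2 RPKM in the controls and 0.0175 and 20.1 RPKM in the knockdown libraries, and ELAVL2 at 0.1 RPKM in U87MG against 3.83 RPKM in U251, with 0.00940 and 3.01 RPKM in the knockdowns. In gene order they stand on both sides of CDKN2A and CDKN2B, which were at 0 in both lines, so the stretch of genes at or near 0 was longer in U87MG. The longest runs on the U87MG side had 5 genes each. They were the chemokines CXCL8, CXCL1, CXCL5, CXCL3 and CXCL2 on chromosome 4, the interleukin-1 family genes IL1A, IL1B, IL36B, IL36RN and IL1RN on chromosome 2 (2.06), and EIF2D, DYRK3, MAPKAPK2, IL24 and PFKFB2 on chromosome 1 (1.11).

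Some genes past 2-fold in the controls did not repeat. On the U87MG side the largest were SERF1A (2.24 in the controls and 0.09 in the knockdowns), the survival gene BCL2A1 (2.21 and 0.40), the protease inhibitor SLPI (2.07 and 0.15), GTF2H2 (1.91 and -0.25) and ANXA8L1 (1.70 and 0.08). SERF1A, GTF2H2 and ANXA8L1 have near-identical copies, with 98.3%, 84.6% and 88.8% of their words in another gene, so their levels are uncertain. On the U251 side they were IFIH1, the zinc finger gene ZCCHC12 (-1.67 and -0.36), NOMO3 (-1.67 and 0.73, with 96.0% shared words), the antiviral MX2 (-1.62 and -0.31) and the transcription factor TP73 (-1.61 and -0.47). A gene singled out after its values were seen was CD99, a surface glycoprotein. It was at 79.2 and 43.1 RPKM (95.1 and 0.0279 RPKM in the knockdowns), so the line difference of the knockdown pair, 6.55 against 0.86 in the controls, came from the U251 knockdown library, where it had 1 read.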

How the data were processed

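Poly(A) RNA of 4 libraries, 1 per line and arm, was sequenced paired-end. The deposited table holds RPKM values that the authors had scaled to gene length and library size. The submitters' processing notes name Bowtie 0.12.2 and hg19. The counting program, annotation and strand setting were not given in the sources used here. Genes that overlap, on the same strand or the other, may therefore share reads. All 4 columns were used.

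The members and gene lists were chosen with earlier results of these data known. Genes of type mRNA at 1 RPKM or more in either control were compared by log2 of RPKM + 1, with no test, since each group is 1 library. Named genes were SRSF1, the 12 highest and 12 lowest ratios that repeated at 2-fold, up to 4 members per list with the largest ratio plus driver and marker genes, the 8 most abundant of each control, the 8 most abundant seen in 1 line alone, and the 5 highest and 5 lowest with an opposite or under 0.5 ratio in the knockdown pair. Further list members are given for context and were chosen after their values were seen. The Y chromosome was left out of chromosome medians and runs, a choice made after the data were examined.

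Each RPKM is a whole number of reads times a step set by gene length and depth, which gave library totals and reads per gene. Of 27973 rows above 0, 27938 (99.9%) came out whole for a gene length up to 60000 bases, against 0.8% of 500 scrambled rows. The reads per gene are thus the smallest that fit, and 1 read in a gene of 1 kilobase was worth 0.0358 to 0.0398 RPKM. Intervals come from the exact 95% Clopper-Pearson limits of the U87MG share of reads, corrected for depth, and hold counting error alone. A near-identical copy means that at least 50% of the 31-base words of the longest GENCODE 29 transcript occur in another gene (known for 11493 genes, 485 at or over the limit). Gene order, chromosomes and promoters come from RefSeq on GRCh38, and no coordinate was converted from hg19. Work was done in Python 3.11.15 (numpy 2.4.6, pandas 2.3.3, scipy 1.17.1) with plots in matplotlib 3.10.9, and the steps were tested on simulated data. Alternatives were other pseudocounts, minimum levels, scalings and the removal of genes with copies. Some listed genes counted in the lists are not reported here by name.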

Additional observations from a re-analysis of the deposited data

Results flagged for a closer look

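A list median or a gene named in the text is given here when its direction differed between the control pair and the knockdown pair, with a ratio of at least 0.1 in size in both. The differences were not tested, since each pair is 1 library per line. The median of the mesenchymal list was -0.24 in the controls and 0.12 in the knockdowns. CD44 had a ratio of 0.18 in the controls and -0.55 in the knockdowns, and its level was lower in the U87MG knockdown (124 RPKM) than in the U87MG control (184 RPKM). MCM6 had 1.06 and -0.15. GTF2H2 (1.91 and -0.25) and NOMO3 (-1.67 and 0.73) have near-identical copies. NOTCH1 had 0.14 and -0.14. Of all 513 tested members of the lists 27 met the same limit, 10 of them cell cycle genes, and the largest reversals were those of BAMBI, a decoy receptor of the TGF-beta family (-0.95 and 1.11), and of the matrix protease ADAMTS9 (0.52 and -1.27).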

How the results depend on the processing

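The numbers of genes higher and lower in U87MG stayed within 1.5 times of 1124 and 1628 under every alternative but 1, the minimum of 5 RPKM, where 1048 were lower and 835 higher of fewer genes tested. No gene past 2-fold changed sign after quantile normalization. The other alternatives could not change a sign at that size, since they keep the order of the 2 levels or shift all ratios by far less than 1. Higher genes were 40.8% of all those past 2-fold as reported, and 47.4%, 46.3% and 48.6% after trimmed-mean rescaling, median centring and quantile normalization, which moved the median of all genes from -0.07 to 0.03, 0.00 and 0.02. The share of lower genes that repeated was 86.8% and 84.8% with pseudocounts of 0.1 and 0.5, 87.6% with the minimum of 5 RPKM, 80.2% after trimmed-mean rescaling and 78.2% after median centring. With median centring 82.5% of the higher genes repeated. These lie outside the exact 95% intervals of 80.2% to 84.0% and 77.2% to 82.0% around the reported shares. The intervals treat genes as independent replicates, which they are not. They therefore give no measure of how far processing should move a share, and the cause of the shifts was not tested. Genes seen in U87MG alone numbered 87 with a limit of 5 RPKM in place of 10, 65 with 0.5 in place of 0.1 RPKM in the other line, and 25 with the limits also met in the knockdowns. In U251 the first 2 numbers were 105 and 87. Of the 26 list medians 5 changed sign under some alternative, all of them under 0.35 in size as reported: the astrocyte and mesenchymal lists (0.22 and 0.06 at the minimum of 5 RPKM, and 0.03 for the latter with no minimum), glycolysis (-0.21 after quantile normalization and -0.08 without genes that have copies), G1/S (0.06 after trimmed-mean rescaling) and the reference genes (0.07). So did 13 of the genes named, of which GAPDH, CALR, PKM, VIM and CD44 did so after quantile normalization (-0.09, -0.04, -0.30, -0.24 and -0.02), while the other 8 were under 0.1 in size as reported. With a floor of 3 reads per library for values of 0, no list median moved by more than 0.07. No paired analysis was possible because each group is 1 library and the labels carry no replicate numbers. Leaving out a library was not possible for the same reason.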
